A study of Mus musculus with 18 samples.

Results

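Sema3b-/- arthritic forepaws were set against WT arthritic forepaws, with 5 libraries of each, 10 of the 18 libraries in the study. The libraries were chosen by their genotype and treatment labels, and no measured value entered that rule, although earlier results of these data were known. Sema3b-/- arthritis libraries came from C57BL/6 mice of the genotype Sema3b-/- and WT arthritis libraries from wild-type C57BL/6 mice, both under a treatment that induced arthritis. The labels name neither the arthritis model nor the age or sex of the mice. They also do not give the part of Sema3b that was removed or whether every cell type lacks it. The 8 control forepaws, 4 Sema3b-/- and 4 WT, gave the genotype difference without arthritis. They also entered the same fit as the arthritis libraries, so the spread behind each arthritis p was shared with them.

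Sema3b encodes semaphorin 3B, a secreted guidance protein. Class 3 semaphorins bind neuropilins on the cell surface, neuropilins pair with plexins, and plexins carry the signal to the cytoskeleton, adhesion and cell movement. In joints, semaphorins are studied in synovial fibroblasts, in the growth of nerves and vessels, and in the balance of bone. The forepaw as a whole holds skin, muscle, bone, cartilage, synovium, fat, vessels and nerve, and the RNA of all of them enters each library. In such bulk samples fewer cells of a type and less RNA per cell cannot be told apart.

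The 10 libraries held 5468160 to 19464892 reads each (median 7860164), and levels are given as normalized counts, which are reads divided by a size factor of the library and say nothing of transcript length. Genes of all the tissues named above were detected, with 16 of 16 skeletal muscle genes, 12 of 13 epidermal genes, 17 of 18 cartilage genes and 16 of 16 synovial fibroblast genes passing the filter on low values. The libraries varied in makeup within each genotype. On a principal component with 46.5% of the variance, Sema3b-/- replicate 2 (-99.87) and WT replicate 3 (-96.23) stood apart from the other 8. They were the lowest of their groups in the summed muscle list, with 0.197% and 0.189% of normalized counts, and in the epidermal list, with 0.0481% and 0.0445%. On a second component, with 12.9% of the variance, WT replicate 1 stood apart at -77.43, and 39.4% of its counts were mitochondrial, against 15.7% to 24.1% in Sema3b-/- arthritis and 18.3% to 27.9% in the other WT arthritis libraries.

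Sex was not balanced between the groups. Xist, a noncoding RNA of the inactive X chromosome, was at 324, 445, 464, 476 and 14.6 normalized counts in Sema3b-/- arthritis, against 579.6, 9.60, 4.60, 2.55 and 7.61 in WT arthritis (replicates 1 to 5 in order). Ddx3y, a helicase encoded on the Y chromosome, was at 1.30, 0.948, 5.03, 0.871 and 806 normalized counts in Sema3b-/- arthritis, against 5.91, 929.9, 1037, 757 and 896 in WT arthritis. By these values 4 Sema3b-/- arthritis libraries were female and 1, replicate 5, was male, while 1 WT arthritis library, replicate 1, was female and 4 were male. Of the controls, 2 Sema3b-/- libraries were female and 2 male, and all 4 WT libraries were female, so females were more frequent in Sema3b-/- than in WT arthritis but less frequent in Sema3b-/- than in WT control. The titles also differ in how they begin, since those of Sema3b-/- replicates 1 and 2 and WT replicate 5 lack the word Joint that opens the other 7. Each called gene is therefore also given with sex as a term in the fit and within the Joint titles.

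Among 13809 genes tested with limma in one fit over all 18 libraries, 3 passed a Benjamini-Hochberg adjusted p of 0.05 in Sema3b-/- arthritis against WT arthritis, which is 0.0217% of the genes. All 3 fell, and none rose. They were Sema3b itself, Lrrn4cl and Tmem100. An unadjusted p under 0.05 was found for 1239 genes (8.97%), of which 695 had a lower (5.03%) and 544 a higher level (3.94%). In 245 genes (1.77%) no Sema3b-/- arthritis value lay within the WT arthritis range, 138 of them lower (0.999%) and 107 higher (0.775%). The authors' deposited table called 2 genes for the same contrast, Lrrn4cl and Sema3b, both with an adjusted p of 0.0124. The labels do not state that each library is a separate mouse, and the tests know only how these libraries vary.

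Sema3b (mm10 chr9:107597674-107609229, minus strand, protein coding) was at 0, 0.948, 2.01, 3.48 and 0 normalized counts in Sema3b-/- arthritis, against 23.7, 34.0, 66.7, 51.9 and 45.6 in WT arthritis. The groups did not overlap, and the highest Sema3b-/- value was below the lowest WT value. The Sema3b-/- libraries held 0 to 4 Sema3b reads each, and the WT libraries 16 to 78. Replicates 1 and 5 of Sema3b-/- arthritis had 0 reads, where 3 reads would be 3.89 and 2.08 normalized counts. Sema3b fell by 4.48 on the log2 scale of the value plus 1 (SE 0.54, limma adjusted p = 0.000986), and the size of this change depends on the added constant. With sex as a term the log2 fold change was -4.46 (limma adjusted p = 0.015). Within the Joint titles it was -4.14 and its adjusted p was 0.0581. The level of the targeted gene was low in every library labelled Sema3b-/-, so no label was at odds with it.

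Lrrn4cl (chr19:8850768-8853909, plus strand, protein coding), a small single-pass membrane protein of the cell surface about which little is known, was at 84.2, 72.0, 98.5, 101 and 117 normalized counts in Sema3b-/- arthritis, against 333, 199.8, 272, 207 and 248 in WT arthritis. Each of the 5 Sema3b-/- values was below each of the 5 WT values, and WT replicate 1 was the highest of all. Lrrn4cl averaged 94.6 ± 17.3 in Sema3b-/- arthritis and 252 ± 54.1 in WT arthritis (SD, n = 5 each). It fell by 1.40 (SE 0.15, limma adjusted p = 0.000385), the lowest p of all genes tested. The log2 fold change was -1.40 with sex as a term (limma adjusted p = 0.0063) and -1.22 within the Joint titles, where its adjusted p was 0.0528. The call also ended with the 10 arthritis libraries alone (-1.40, adjusted p = 0.0537) and with sex as a term in those 10 (-1.43, adjusted p = 0.366). In control forepaws Lrrn4cl was at 169.9, 174, 180.5 and 168 in Sema3b-/- control, against 231, 206, 203 and 231 in WT control. The control log2 fold change was -0.33 (limma adjusted p = 0.854). In these libraries all 4 Sema3b-/- control values lay below all 4 WT control values, and all lay above those of Sema3b-/- arthritis.

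Tmem100 (chr11:90030348-90036508, plus strand, protein coding), a transmembrane protein of endothelium that bone morphogenetic proteins induce through the receptor ALK1, also found in sensory neurons, was at 298, 255, 280.4, 374 and 343 normalized counts in Sema3b-/- arthritis, against 973, 588, 913, 513 and 579 in WT arthritis. The groups did not overlap. The Sema3b-/- values lay close together, while WT replicates 1 and 3 stood well above the other WT libraries. Tmem100 averaged 310.1 ± 48.0 in Sema3b-/- arthritis and 713 ± 213 in WT arthritis (SD, n = 5 each) and fell by 1.16 (SE 0.17, limma adjusted p = 0.0106). In control forepaws it was at 679.8, 596, 700.5 and 618 in Sema3b-/- control, against 585, 598, 537 and 768 in WT control, where the ranges overlapped (log2 fold change 0.07). With sex as a term the log2 fold change in arthritis was -1.24 (limma adjusted p = 0.031). The call ended within the Joint titles (-1.12, adjusted p = 0.234) and without Sema3b-/- arthritis replicate 2 (-1.10, adjusted p = 0.0517). It also ended without Sema3b-/- replicate 2 and WT replicate 3 together (-0.99, adjusted p = 0.0943) and with the 10 arthritis libraries alone (-1.16, adjusted p = 0.324; -1.29 and 0.5 with sex as a term).

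**Figure D1:**
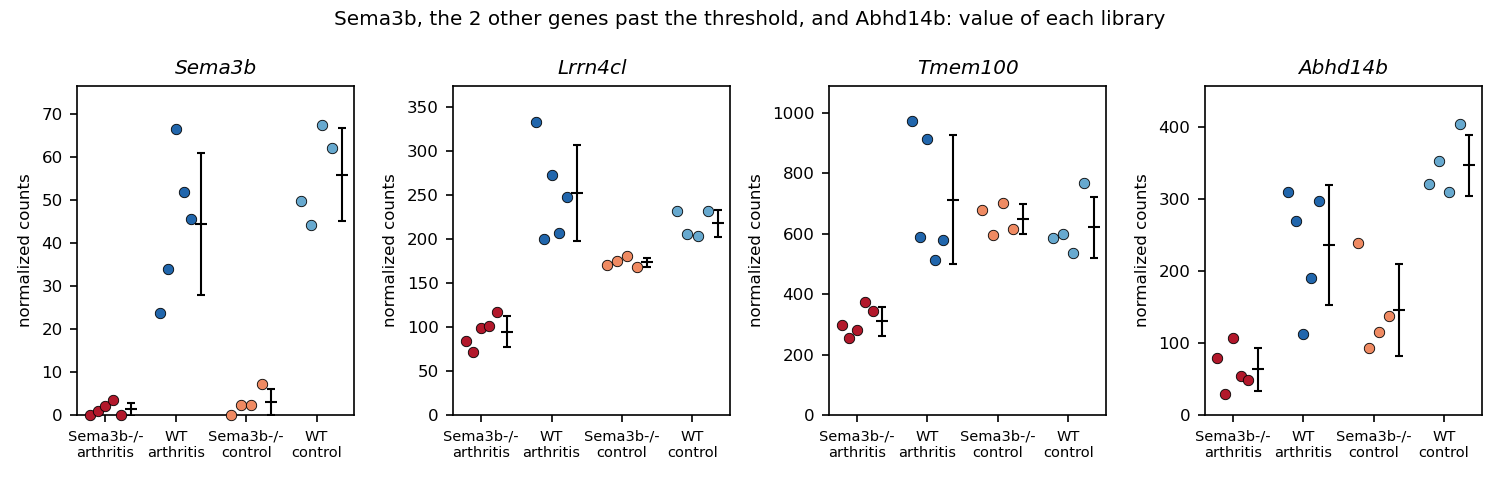
Normalized counts (vertical axis) of Sema3b, Lrrn4cl, Tmem100 and Abhd14b in each library of the 4 groups, with the mean and SD beside each group. All Sema3b-/- arthritis points of the 4 genes lie below all WT arthritis points; for Lrrn4cl they are 72.0 to 117, against 199.8 to 333 in WT arthritis.

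The difference of these genotype effects between arthritis and control was tested as an interaction in the same limma fit. It was -1.07 for Lrrn4cl and -1.23 for Tmem100, with an adjusted p of 0.449 for both, and -0.29 for Sema3b (adjusted p = 0.986). No gene passed the interaction test (limma, 0 of 13809), and 663 had an unadjusted p under 0.05 (4.8%). The interaction had no term for sex, whose balance between the genotypes ran the other way in controls, and the part of sex in it was not tested. Neither Lrrn4cl nor Tmem100 is thus shown to differ more by genotype in arthritis than in control forepaws. In the control contrast limma called 2 genes (0.0145%), Sema3b and Gas5, and 811 had an unadjusted p under 0.05 (5.87%).

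Cell types that could carry the called genes were looked at beside them. Of 15 endothelial genes tested, 3 had a lower and none a higher level at an unadjusted p under 0.05, beside 5.03% and 3.94% of all tested genes. The log2 fold change was negative in 7 of the 15 and positive in 8, the highest being that of Flt1 at 0.52. The list median was 0.02, beside 0.002 over all tested genes, and it was -0.18 without WT replicate 1. Tek, the angiopoietin receptor of endothelium, was at 68.7, 72.0, 74.4, 77.5 and 83.4 normalized counts in Sema3b-/- arthritis, against 93.1, 92.0, 123, 129 and 109.6 in WT arthritis, with no overlap (log2 fold change -0.52, SE 0.15, limma adjusted p = 0.313). Cldn5, a protein of endothelial tight junctions, had a log2 fold change of -0.49. The endothelial list took 0.0392% to 0.0520% of normalized counts in Sema3b-/- arthritis and 0.0329% to 0.0613% in WT arthritis. Of 14 genes of the bone morphogenetic protein pathway, Tmem100 fell, and Id3, a transcriptional target that blocks differentiation factors, had a log2 fold change of -0.50 (adjusted p = 0.461); the list median was -0.19, and -0.07 without Sema3b-/- replicate 2. The part of endothelial cell content in the Tmem100 result was not tested.

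Genes just short of the threshold with a lower level in Sema3b-/- arthritis had adjusted p-values of 0.0614 to 0.132. The 10 with the lowest p and a level at or above the median were Abhd14b, Dnajb4, Scara5, Errfi1, Cdo1, Abhd14a, Rbp4, Ecm2, Rgs5 and Gas5. In 7 of the 10 the groups did not overlap (beside 0.999% of all tested genes), the exceptions being Cdo1, Rgs5 and Gas5; the genes were picked by their p, so this describes them and tests nothing. Abhd14b, an enzyme that removes acetyl groups from lysine, was at 79.0, 29.4, 107, 54.0 and 49.3 normalized counts in Sema3b-/- arthritis, against 310.5, 270.0, 113, 191 and 297 in WT arthritis. The highest Sema3b-/- value was close to the lowest WT value, and the other 4 WT libraries were at least 190.5. Its log2 fold change was -1.91 (SE 0.33, limma adjusted p = 0.0614), and it passed with sex as a term (-2.26, adjusted p = 0.031). It did not pass within the Joint titles (-1.63, limma adjusted p = 0.602). Nor did it pass with the 10 arthritis libraries alone (-1.91, adjusted p = 0.41; -2.18 and 0.5 with sex as a term). Abhd14a, its neighbour, was at 127, 152, 154, 129 and 152 normalized counts in Sema3b-/- arthritis, against 251, 189.7, 252, 242 and 209 in WT arthritis, again with no overlap (log2 fold change -0.67, SE 0.13, limma adjusted p = 0.082).

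In control forepaws Abhd14b was at 239, 92.7, 115 and 138 in Sema3b-/- control, against 322, 353, 309.6 and 405 in WT control, without overlap (log2 fold change -1.33). Abhd14a differed there by -0.60, with values of 178, 130.2, 141 and 122 in Sema3b-/- control and 195, 227, 229 and 208 in WT control. Both genes thus had a lower level in Sema3b-/- forepaws of either treatment, in libraries that share no sample. They lie side by side on chromosome 9, Abhd14a at 106440051 to 106447678 on the minus strand and Abhd14b at 106447459 to 106452923 on the plus strand, about a megabase from Sema3b. Their gene models share 220 bases at their starts. No source used here gives whether counting used strand, so reads from that overlap cannot be told apart, although the tags of CEL-seq come mostly from the far, 3′ ends.

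Because the genes are transcribed in opposite directions from nearby starts and both were low, their start regions are printed below from RefSeq (GRCm38.p6, 250 bases before to 50 after the start), with Mt1 for the metallothioneins described further on. Of 7 symbols looked up 4 were in the table. Capitals mark GC boxes (GGGCGG on either strand) in Abhd14a, at chr9:106447629-106447928 on the minus strand, and Abhd14b, at chr9:106448390-106448689 on the plus strand. In Mt1, at chr8:94178839-94179138 on the plus strand, they mark the core of metal response elements (TGCACNC or TGCGCNC on either strand).
Abhd14a: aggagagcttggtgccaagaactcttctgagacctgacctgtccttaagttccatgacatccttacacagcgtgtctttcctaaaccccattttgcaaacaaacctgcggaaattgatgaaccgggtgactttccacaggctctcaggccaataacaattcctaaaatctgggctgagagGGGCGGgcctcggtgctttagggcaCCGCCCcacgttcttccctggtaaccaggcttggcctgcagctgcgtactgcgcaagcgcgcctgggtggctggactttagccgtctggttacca
Abhd14b: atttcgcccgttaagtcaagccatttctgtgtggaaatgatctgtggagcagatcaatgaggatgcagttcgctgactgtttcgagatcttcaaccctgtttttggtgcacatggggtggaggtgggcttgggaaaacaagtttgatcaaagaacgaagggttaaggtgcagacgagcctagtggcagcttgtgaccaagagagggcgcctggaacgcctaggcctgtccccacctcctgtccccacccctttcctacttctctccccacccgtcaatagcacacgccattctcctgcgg
Mt1: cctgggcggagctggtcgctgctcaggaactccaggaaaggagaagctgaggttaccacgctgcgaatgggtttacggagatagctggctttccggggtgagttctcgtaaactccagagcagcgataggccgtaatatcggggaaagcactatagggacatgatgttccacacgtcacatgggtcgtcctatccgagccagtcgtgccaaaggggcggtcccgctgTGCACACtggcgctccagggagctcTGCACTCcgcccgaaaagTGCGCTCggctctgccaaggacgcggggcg
The Abhd14a window holds 2 GC boxes and the Abhd14b window 0, and 461 bases lie between the windows. A GC box is found in 35.7% of all 32851 windows of that length. The Mt1 window holds 3 metal response cores, a motif found in 25.7% of windows. RefSeq starts Abhd14b downstream of the gene model given above, so its window does not hold that model's start or the shared bases. These are matches of letters and say nothing of binding.

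Other genes of the lower set have varied roles. Errfi1, a feedback inhibitor of the EGF receptor, was at 203, 250.2, 265, 392 and 354 normalized counts in Sema3b-/- arthritis, against 565, 411, 869, 517 and 622 in WT arthritis. Every Sema3b-/- value was below every WT value, while in controls Errfi1 was at 247, 264, 268 and 223 in Sema3b-/- control, against 214, 208, 203 and 182 in WT control. Its log2 fold change was -1.02 in arthritis (SE 0.19, limma adjusted p = 0.0635) and 0.31 in controls, and the interaction was -1.33 (adjusted p = 0.449). Scara5, a scavenger receptor that takes up ferritin and marks some fibroblasts, was at 108, 105, 154, 187 and 202 normalized counts in Sema3b-/- arthritis, against 356, 349, 313, 236 and 391 in WT arthritis (log2 fold change -1.15, SE 0.21, limma adjusted p = 0.0614). Dnajb4, a cochaperone of Hsp70, was at 86.8, 73.9, 112, 117 and 127 normalized counts in Sema3b-/- arthritis, against 213, 192, 191, 170.1 and 165 in WT arthritis (log2 fold change -0.87, SE 0.15, limma adjusted p = 0.0614). Neither of these overlapped between groups, and both were near 0 in controls, with log2 fold changes of 0.11 for Scara5 and -0.01 for Dnajb4.

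Genes of matrix, metabolism and vessel walls made up the rest of that set. Ecm2, an extracellular matrix protein, averaged 373 ± 106 in Sema3b-/- arthritis and 827 ± 212 in WT arthritis (SD, n = 5 each; log2 fold change -1.17). Cdo1, which oxidises cysteine, averaged 177 ± 84.2 in Sema3b-/- arthritis and 435 ± 151 in WT arthritis (log2 fold change -1.32), with Sema3b-/- replicate 1 at 327 inside the WT range. Rbp4, the plasma carrier of retinol, averaged 111 ± 23.7 in Sema3b-/- arthritis and 221 ± 65.8 in WT arthritis (log2 fold change -0.97). Rgs5, a regulator of G protein signalling in pericytes, averaged 70.0 ± 37.2 in Sema3b-/- arthritis and 183 ± 63.8 in WT arthritis (log2 fold change -1.45). Gas5, a noncoding RNA that hosts small nucleolar RNAs, was at 662, 671, 971, 942 and 774 normalized counts in Sema3b-/- arthritis, against 1164, 963, 1261, 1245 and 1319.6 in WT arthritis. One Sema3b-/- value, that of replicate 3, was above the lowest WT value (log2 fold change -0.58, adjusted p = 0.132). In controls Gas5 was 566, 569, 488 and 542 in Sema3b-/- control, against 934, 1051, 995 and 953 in WT control, where it fell by 0.86 (limma adjusted p = 0.0385). Over the 10 genes, the control log2 fold change was negative in 8, beside 50.8% of all tested genes. In controls 5 had a lower level at an unadjusted p under 0.05, beside 3.21%. Both contrasts share 1 spread per gene in the fit, so a gene with a small spread tends to a low p in both. Abhd14a and Abhd14b are also neighbours, and these counts describe genes picked by their p and test nothing.

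The 10 genes with a higher level and the lowest p had adjusted p-values of 0.106 to 0.228 and include a pair of metallothioneins. Metallothioneins bind zinc and copper and respond to metals, glucocorticoids and inflammation. Mt1 was at 8453, 7871, 5964, 5155 and 5366 normalized counts in Sema3b-/- arthritis, against 3562, 2274, 3929, 4304 and 4307 in WT arthritis. Mt2 was at 8528, 8166, 6978, 6516 and 6578 normalized counts in Sema3b-/- arthritis, against 2898, 2500.0, 5061, 4894 and 4257 in WT arthritis. In both genes the lowest Sema3b-/- value was above the highest WT value. Replicates 1 and 2, whose titles lack the word Joint, were the highest of the Sema3b-/- group. The log2 fold change was 0.84 for Mt1 (SE 0.17, limma adjusted p = 0.132) and 0.95 for Mt2 (SE 0.23, limma adjusted p = 0.204). Within the Joint titles it was 0.68 for Mt1 and 0.87 for Mt2. In controls Mt1 was 1837, 2197, 2220.2 and 2371 in Sema3b-/- control, against 1978, 1881, 2127 and 1573 in WT control, and the log2 fold changes were 0.19 for Mt1 and 0.07 for Mt2. The 2 genes are close in sequence, so reads may be shared between them.

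Il4ra, the receptor chain shared by interleukin-4 and interleukin-13, was at 552, 847, 449, 545 and 463 normalized counts in Sema3b-/- arthritis, against 213, 108, 348, 321 and 214 in WT arthritis. The groups did not overlap, and Sema3b-/- replicate 2 stood far above the rest (log2 fold change 1.31, SE 0.33, limma adjusted p = 0.228). Erdr1, a gene of the pseudoautosomal region that the X and Y chromosomes share, was at 955, 849, 596, 476 and 577 normalized counts in Sema3b-/- arthritis, against 289.8, 214, 237, 157 and 93.8 in WT arthritis. Its groups did not overlap either. The female WT replicate 1 was the highest of the WT group, and the male Sema3b-/- replicate 5 was at 577. The log2 fold change was 1.85 (limma adjusted p = 0.106), and 1.60 with sex as a term. Chl1, a neural adhesion molecule of the L1 family that can associate with neuropilin 1, was at 476, 629, 639, 343 and 633 normalized counts in Sema3b-/- arthritis, against 183, 191, 368, 315 and 233 in WT arthritis, with one overlap between Sema3b-/- replicate 4 and WT replicate 3 (log2 fold change 1.09, SE 0.27, limma adjusted p = 0.228).

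Enzymes and nuclear proteins complete the higher set. Pkm, the glycolytic enzyme pyruvate kinase, was at 5077, 7091, 5786, 5395 and 5576 normalized counts in Sema3b-/- arthritis, against 3957, 4199.6, 3709, 4057 and 3990.3 in WT arthritis. All Sema3b-/- values lay above all WT values (log2 fold change 0.53, SE 0.13, limma adjusted p = 0.228). Rangap1, which activates the Ran GTPase at the nuclear pore, averaged 256 ± 27.1 in Sema3b-/- arthritis and 171 ± 20.5 in WT arthritis (log2 fold change 0.58 in arthritis and 0.45 in controls). Paxbp1, a partner of PAX3 and PAX7 in muscle progenitors, averaged 165 ± 19.7 in Sema3b-/- arthritis and 105 ± 12.5 in WT arthritis (log2 fold change 0.65). Zdhhc9, a palmitoyltransferase of Ras, averaged 110.3 ± 9.31 in Sema3b-/- arthritis and 63.3 ± 13.2 in WT arthritis (log2 fold change 0.81), and Samd1, a chromatin protein of unmethylated CpG islands, averaged 489.8 ± 83.8 in Sema3b-/- arthritis and 332 ± 62.1 in WT arthritis (log2 fold change 0.56). Errors are SD with n = 5 each. In 8 of the 10 higher genes the groups did not overlap (beside 0.775% of all tested genes), which describes genes picked by their p. The control log2 fold change was negative in 4 of them, beside 50.8% of all tested genes.

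**Figure D2:**
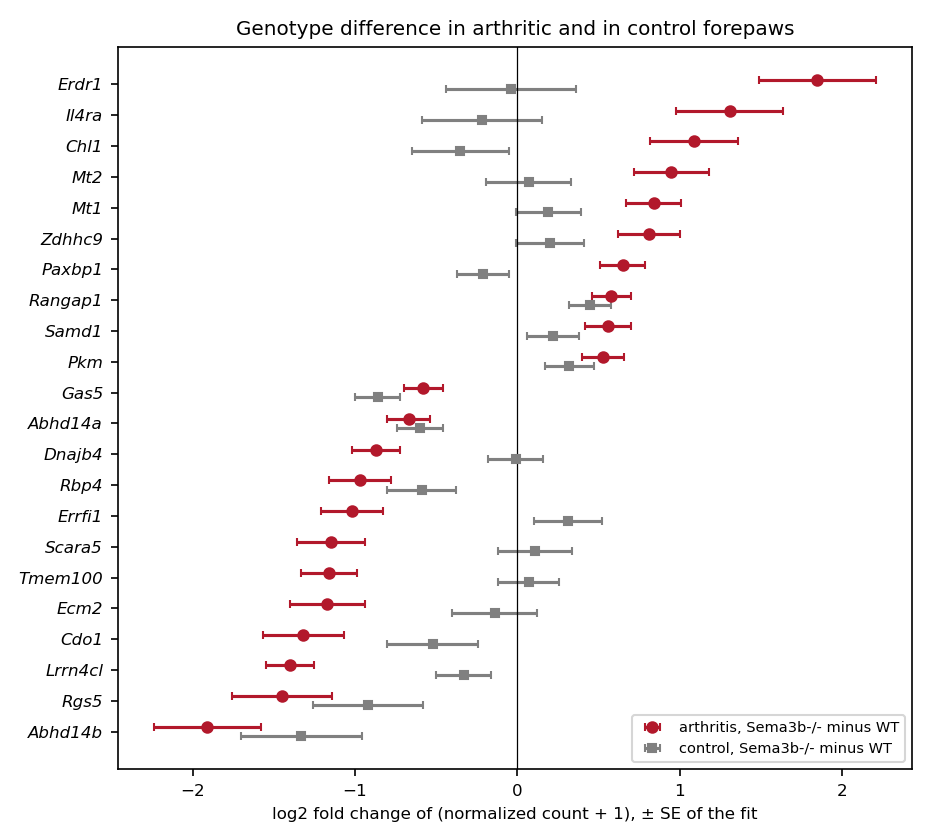
Log2 fold change of Sema3b-/- minus WT with its SE (horizontal axis) for Lrrn4cl, Tmem100 and the 20 uncalled genes, in arthritis (red circles) and in control forepaws (grey squares); Sema3b is left out for scale. Abhd14b, Abhd14a, Gas5 and Rgs5 lie left of 0 in both contrasts, while Tmem100, Scara5, Dnajb4 and Errfi1 lie left of 0 in arthritis and at 0.31 or less from 0 in controls.

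Genes around Sema3b on chromosome 9 were counted within 2 Mb on either side, a window chosen with values known. Of 78 tested genes other than Sema3b, 12 had an unadjusted p under 0.05 in arthritis (15.4%, beside 8.97% of all tested genes) and 12 in controls (15.4%, beside 5.87%). In 7 genes (8.97%, beside 0.717% of all tested genes) both were under 0.05 with the same sign: Pik3r4, Abhd14a, Abhd14b, Hemk1, Tusc2, Hyal1 and Tcta. Hyal1, a hyaluronidase, was at 27.2, 33.2, 28.1, 34.0 and 39.6 normalized counts in Sema3b-/- arthritis, against 20.7, 12.2, 20.7, 20.4 and 16.5 in WT arthritis. The groups did not overlap, and the log2 fold change was 0.82 in arthritis (adjusted p = 0.397) and 1.16 in controls. Tusc2, a mitochondrial tumour suppressor, had log2 fold changes of 0.38 in arthritis and 0.49 in controls. None but Sema3b passed over all genes.

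Of the other class 3 semaphorins, none passed the threshold. Sema3c, which acts on endothelial and neural crest cells through both neuropilins, was at 212, 159, 283, 207 and 231 normalized counts in Sema3b-/- arthritis, against 818, 363, 459.9, 282 and 352 in WT arthritis. Sema3b-/- replicate 3, at 283, was just above WT replicate 4, at 282, and the other Sema3b-/- values were below the WT range (log2 fold change -0.97, SE 0.23, limma adjusted p = 0.196). Sema3d, which guides endothelial cells and axons, was at 49.2, 58.8, 86.4, 81.0 and 78.5 normalized counts in Sema3b-/- arthritis, against 384, 122, 103, 78.3 and 96.3 in WT arthritis, with WT replicate 1 far above the others (log2 fold change -0.90, SE 0.32, limma adjusted p = 0.422). Sema3a, the repellent of sensory and sympathetic axons, was at 132, 156, 119, 95.0 and 107 normalized counts in Sema3b-/- arthritis, against 535, 104, 171, 172 and 157 in WT arthritis, where WT replicate 1 again stood apart (log2 fold change -0.67). Sema3e, a ligand that binds plexin D1 directly, had 18.1 to 27.9 normalized counts in Sema3b-/- arthritis, against 8.51 to 101 in WT arthritis (log2 fold change -0.52). Sema3f, a ligand of neuropilin 2 encoded near Sema3b, had 26.1 to 102 normalized counts in Sema3b-/- arthritis, against 39.9 to 51.9 in WT arthritis (log2 fold change 0.31). Sema3g was at 0 to 4.02 in Sema3b-/- arthritis and 0 to 9.36 in WT arthritis, too low to be tested. Of the 6 tested members, Sema3b among them, 5 had a negative log2 fold change, beside 49.7% of all tested genes. An unadjusted p under 0.05 was found for 3 of these 5, namely Sema3b, Sema3c and Sema3d. Over all tested genes 5.03% had a lower level by that measure. The list median was -0.78, and it was -0.40 without WT replicate 1. The counts and medians include Sema3b, whose low level the genotype set in advance, so they do not describe the other members alone.

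The receptors gave smaller and mixed values. Nrp1 and Nrp2, the neuropilins, had log2 fold changes of -0.07 and 0.21. Nrp1 averaged 1063 ± 103 in Sema3b-/- arthritis and 1118 ± 161 in WT arthritis, and Nrp2 averaged 491 ± 119.6 in Sema3b-/- arthritis and 431 ± 124 in WT arthritis (SD, n = 5 each). Plxna1, a plexin that signals for class 3 semaphorins, was at 132, 142, 161, 132 and 143 normalized counts in Sema3b-/- arthritis, against 76.9, 70.7, 122, 123 and 101 in WT arthritis, with no overlap (log2 fold change 0.55, SE 0.17, limma adjusted p = 0.353). WT replicates 1 and 2 were the lowest there. Plxna2 had a log2 fold change of -0.50 (adjusted p = 0.44), Plxna3 of 0.53, Plxna4 of -0.45, and Plxnd1, the receptor of Sema3e, of 0.56 (adjusted p = 0.509). Of the 7 receptor genes 2 had a higher and 1 a lower level at an unadjusted p under 0.05. The shares over all tested genes were 3.94% higher and 5.03% lower.

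Among 16 other semaphorins and plexins 3 had a higher and none a lower level at an unadjusted p under 0.05. Over all tested genes 3.94% were higher and 5.03% lower by that measure. The list median was 0.32, and 0.21 without WT replicate 4. Sema4c, a ligand of plexin B2, was at 49.2, 63.5, 79.4, 53.1 and 78.5 normalized counts in Sema3b-/- arthritis, against 25.1, 41.4, 51.7, 36.6 and 42.5 in WT arthritis, with one WT value, that of replicate 3, inside the Sema3b-/- range (log2 fold change 0.71, SE 0.22, limma adjusted p = 0.34). Sema4a, which acts on T cells and endothelium, had 215 to 355 normalized counts in Sema3b-/- arthritis, against 135 to 295 in WT arthritis (log2 fold change 0.56). Of 18 intermediates of semaphorin signalling 1 had an unadjusted p under 0.05, Fes, a tyrosine kinase that binds plexin A1, with 104 to 222 normalized counts in Sema3b-/- arthritis, against 87.2 to 115 in WT arthritis (log2 fold change 0.58, adjusted p = 0.383). L1cam, an adhesion molecule that joins neuropilin 1, had a log2 fold change of 0.74.

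**Figure D3:**
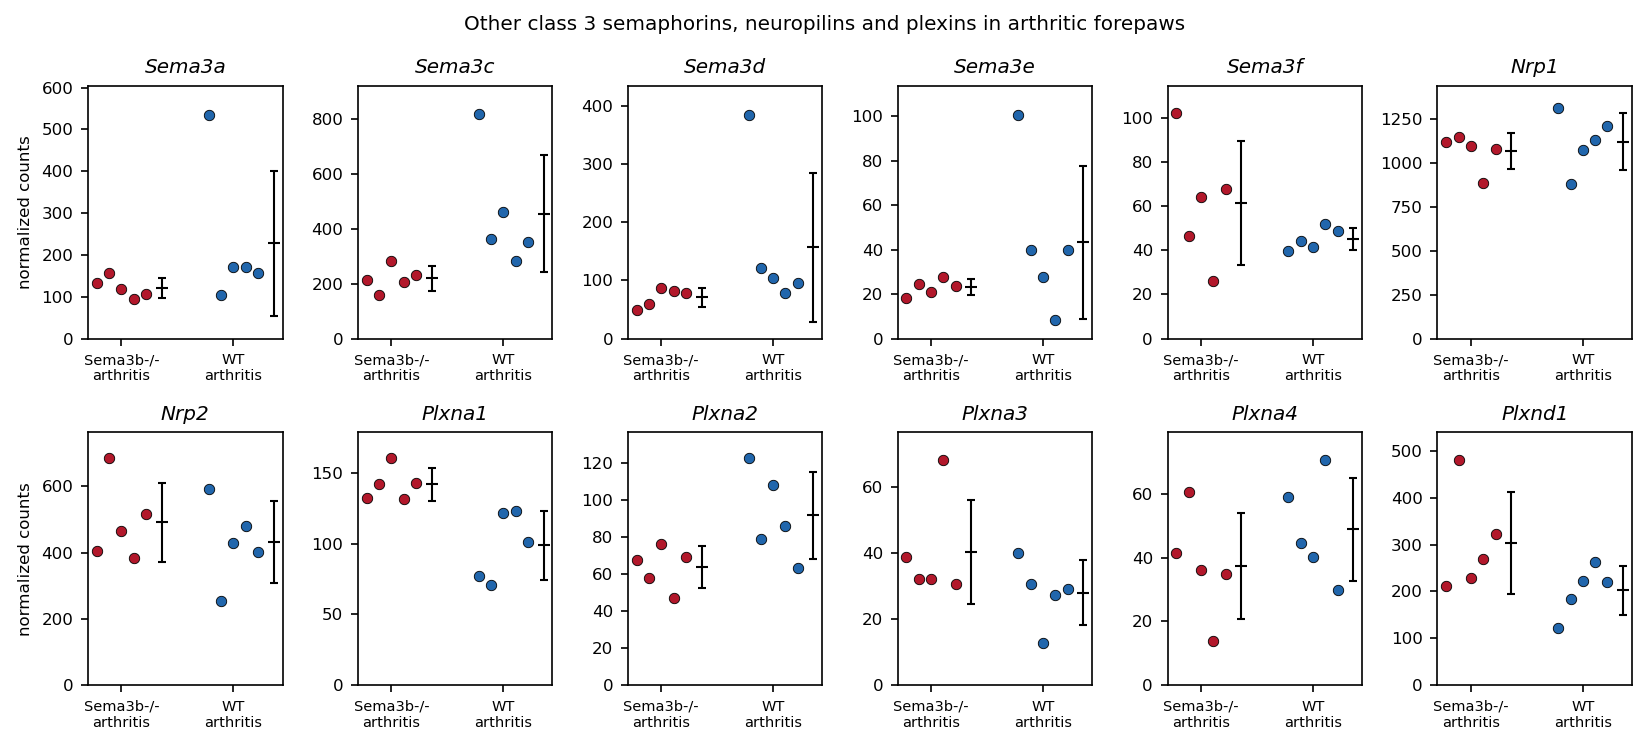
Normalized counts (vertical axis) of 5 class 3 semaphorins, 2 neuropilins and 5 plexins in each Sema3b-/- arthritis and WT arthritis library, with the mean and SD beside each group. WT replicate 1, the leftmost WT point, is the highest for Sema3a (535), Sema3c (818), Sema3d (384) and Sema3e (101), and the Plxna1 groups do not overlap.

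Inflammatory lists had positive medians with no called member. Over all tested genes 49.7% had a negative log2 fold change, and 3.94% had a higher and 5.03% a lower level at an unadjusted p under 0.05. Of 17 chemokines 14 had a positive log2 fold change, 3 with an unadjusted p under 0.05, and the median was 0.95. Cxcl14, a chemokine of skin and stroma, was at 3668, 3764, 3005, 3889 and 2771 normalized counts in Sema3b-/- arthritis, against 889, 1118, 1739.5, 2379 and 3032 in WT arthritis. Sema3b-/- replicates 3 and 5 lay below WT replicate 5, and WT replicates 1 and 2 were the lowest (log2 fold change 1.03, SE 0.26, limma adjusted p = 0.228). Ccl9, which attracts monocytes and osteoclast precursors in mice, was at 2751, 2977, 1620.3, 3394 and 2364 normalized counts in Sema3b-/- arthritis, against 1063, 804, 2069.5, 1909 and 2038 in WT arthritis, again lowest in WT replicates 1 and 2 (log2 fold change 0.79, SE 0.28, limma adjusted p = 0.416). The share of normalized counts taken by the whole chemokine list was 0.243%, 0.277%, 0.182%, 0.280% and 0.252% in Sema3b-/- arthritis, against 0.0599%, 0.0706%, 0.233%, 0.255% and 0.231% in WT arthritis. WT replicates 3 to 5 lay within the Sema3b-/- range, and WT replicates 1 and 2 were far below it. The list median was 0.44 without WT replicate 2 and 0.47 with edgeR.

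Cytokines and myeloid markers were mostly on the higher side. All 12 cytokines tested had a positive log2 fold change (median 0.76), 2 of them with an unadjusted p under 0.05. The median was 0.35 without WT replicate 1 and 0.32 with edgeR. Il1rn, the natural antagonist of the interleukin-1 receptor, was at 457, 512, 487, 477 and 608 normalized counts in Sema3b-/- arthritis, against 142, 256, 302, 491 and 258 in WT arthritis (log2 fold change 0.91, SE 0.30, limma adjusted p = 0.375). Il33, an alarmin of stromal cells, was at 289, 462, 197, 186 and 186 normalized counts in Sema3b-/- arthritis, against 81.3, 114, 182, 236 and 106 in WT arthritis (log2 fold change 0.88, SE 0.29, limma adjusted p = 0.388). In both genes WT replicate 4 lay within the Sema3b-/- range and WT replicate 1 was the lowest. Of 16 monocyte and macrophage genes 14 were positive (median 0.34) and 1 had an unadjusted p under 0.05. The median was 0.09 without WT replicate 2 and 0.05 with weights per library. Ccr2, the chemokine receptor of inflammatory monocytes, was at 739.9, 765, 565, 705 and 668 normalized counts in Sema3b-/- arthritis, against 308, 290.5, 502, 522 and 465 in WT arthritis, with no overlap (log2 fold change 0.76, SE 0.20, limma adjusted p = 0.254). Mrc1, the mannose receptor of tissue macrophages, had a log2 fold change of 0.35. The macrophage list took 0.202% to 0.340% of normalized counts in Sema3b-/- arthritis and 0.114% to 0.327% in WT arthritis.

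Other leukocyte lists gave few single-gene differences. Of 13 mature neutrophil genes none had an unadjusted p under 0.05 (median 0.26). Their median was -0.37 without WT replicate 1 and 0.92 with sex as a term. Of 9 marrow neutrophil granule genes 7 were negative (median -0.34, and 0.18 without Sema3b-/- replicate 5). All 8 T and NK cell genes were negative (median -0.31) and 8 of 9 B cell genes (median -0.63), while all 8 mast cell genes were positive (median 0.20). These medians shrank to -0.15 for T and NK cells without WT replicate 5, to -0.33 for B cells without Sema3b-/- replicate 3 and to 0.06 for mast cells without Sema3b-/- replicate 1. With sex as a term the T and NK cell median was -0.09. Itgax, the CD11c integrin of dendritic cells, was at 64.8, 139, 72.4, 452 and 103 normalized counts in Sema3b-/- arthritis, against 19.2, 30.1, 46.0, 83.4 and 67.8 in WT arthritis, where Sema3b-/- replicate 4 stood far above the rest (log2 fold change 1.51, SE 0.48, limma adjusted p = 0.367). Of 15 interferon-stimulated genes 14 were positive (median 0.59), 1 with an unadjusted p under 0.05, Oasl2, an antiviral protein of the OAS family, with 288 to 596 normalized counts in Sema3b-/- arthritis, against 93.3 to 408 in WT arthritis (log2 fold change 0.86). That list's median was 0.27 without WT replicate 2 and 0.24 with weights per library. In the complement and acute phase list 2 of 13 genes had a higher and 2 a lower level at an unadjusted p under 0.05. Over all tested genes 3.94% were higher and 5.03% lower by that measure. The list median was 0.08, and -0.08 without WT replicate 1. Ptx3, a soluble pattern recognition protein, was at 260.4, 515, 269, 179 and 235 normalized counts in Sema3b-/- arthritis, against 79.8, 28.8, 138, 231 and 84.9 in WT arthritis (log2 fold change 1.57, SE 0.40, limma adjusted p = 0.228). Its groups overlapped in WT replicate 4 alone.

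**Figure D4:**
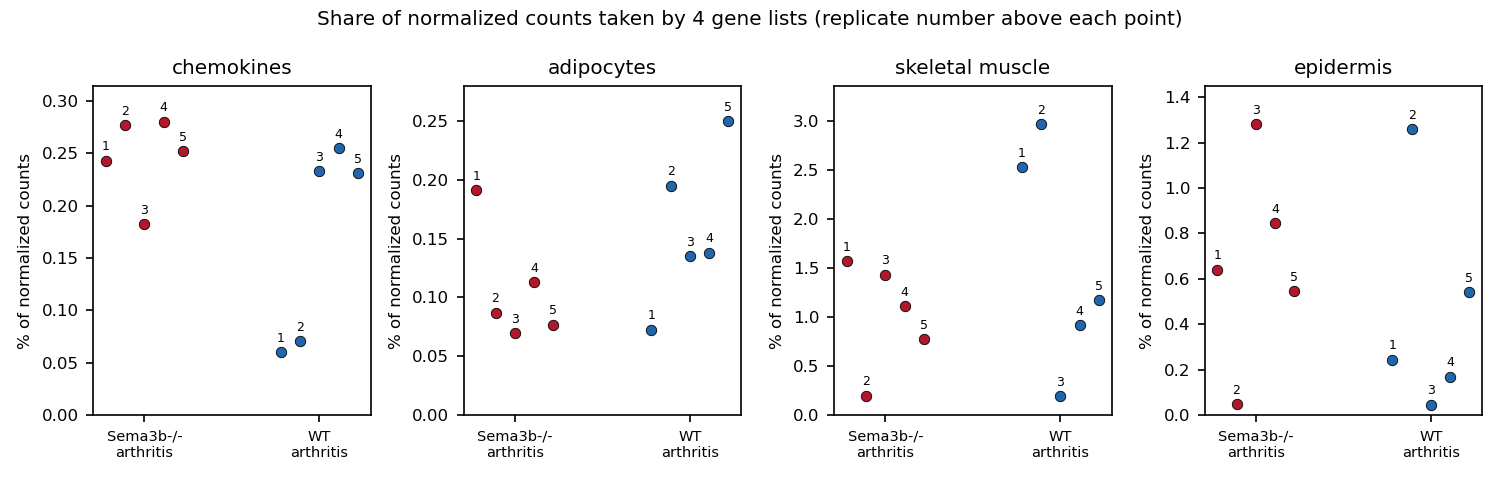
Share of normalized counts (vertical axis, %) taken by the chemokine, adipocyte, skeletal muscle and epidermal lists in each Sema3b-/- arthritis and WT arthritis library, with replicate numbers. WT replicates 1 and 2 are lowest in chemokines (0.0599% and 0.0706%) and highest in muscle (2.53% and 2.97%), and Sema3b-/- replicate 2 and WT replicate 3 are lowest in muscle and epidermis.

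Adipocyte genes had the lowest median of the tissue lists. All 10 tested had a negative log2 fold change, beside 49.7% of all tested genes. In 7 of the 10 the unadjusted p was under 0.05, beside 5.03% lower over all tested genes. The list median was -0.93. Adipoq, the hormone adiponectin of fat cells, was at 1003, 551, 351, 586 and 346 normalized counts in Sema3b-/- arthritis, against 455, 1420.1, 1061, 1082 and 1957 in WT arthritis. Sema3b-/- replicate 1 was the highest of its group, and WT replicate 1 lay within the Sema3b-/- range (log2 fold change -1.04, SE 0.34, limma adjusted p = 0.375). Lep, the fat hormone leptin, was at 18.1, 7.58, 2.01, 3.48 and 4.17 normalized counts in Sema3b-/- arthritis, against 10.3, 37.5, 14.9, 28.1 and 49.4 in WT arthritis (log2 fold change -1.96, SE 0.50, limma adjusted p = 0.228). In controls the same list had a median of -0.67, from libraries that share no sample with the arthritis contrast. Thrsp, a regulator of lipid synthesis in fat, averaged 61.0 ± 35.7 in Sema3b-/- arthritis and 283 ± 163 in WT arthritis (SD, n = 5 each), with WT replicate 1, at 65.1, inside the Sema3b-/- range (log2 fold change -2.12, SE 0.51, limma adjusted p = 0.228). Scd1, the desaturase that makes oleic acid, was at 3461, 1101, 1668, 2287 and 1338 normalized counts in Sema3b-/- arthritis, against 4153, 5156, 4525, 2938 and 4182 in WT arthritis, and its groups overlapped in Sema3b-/- replicate 1 and WT replicate 4 (log2 fold change -1.19, SE 0.29, limma adjusted p = 0.228). The summed adipocyte list took 0.191%, 0.0871%, 0.0696%, 0.113% and 0.0769% of normalized counts in Sema3b-/- arthritis, against 0.0725%, 0.195%, 0.135%, 0.138% and 0.250% in WT arthritis. Replicate 1 of each genotype lay with the other group.

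Cartilage genes were also on the lower side. Of 17 tested 16 were negative, beside 49.7% of all tested genes. In 6 of the 16 the unadjusted p was under 0.05, beside 5.03% lower over all tested genes. The list median was -0.81, and with sex as a term it was -0.27. Cilp2, a cartilage matrix protein, was at 81.6, 40.7, 63.3, 63.6 and 50.7 normalized counts in Sema3b-/- arthritis, against 146, 108, 270.2, 69.7 and 129 in WT arthritis, with WT replicate 4 inside the Sema3b-/- range (log2 fold change -1.15, SE 0.32, limma adjusted p = 0.301). Cilp, its relative of the middle zone of cartilage, was at 739, 850.0, 672, 1013 and 1075 normalized counts in Sema3b-/- arthritis, against 2141, 829.5, 1328, 1118 and 1358 in WT arthritis (log2 fold change -0.59, SE 0.21, limma adjusted p = 0.416). Without Sema3b-/- replicate 3 the median of the cartilage list was -0.50. In controls, where the balance of sexes was the reverse, the cartilage median was 0.45; the part of sex in these medians was not tested. Of 13 osteoblast and osteocyte genes 12 were negative (median -0.41). The median of this list was -0.27 without Sema3b-/- replicate 3 and -0.16 with sex as a term. An unadjusted p under 0.05 was found for 1 of them, Omd, a keratan sulphate proteoglycan of mineralised matrix. Omd had 82.4 to 189 normalized counts in Sema3b-/- arthritis, against 139 to 347 in WT arthritis (log2 fold change -0.97). Of 10 osteoclast genes 8 were positive (median 0.38, 0.26 to 0.54 with 1 library left out, and 0.79 with sex as a term).

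Synovial fibroblast genes had a median of -0.26 (-0.10 without WT replicate 3 and -0.02 with sex as a term). Of 16 tested, 2 had a lower level at an unadjusted p under 0.05, beside 5.03% of all tested genes. Clic5, a chloride channel protein, was at 223, 160.2, 349, 413 and 385 normalized counts in Sema3b-/- arthritis, against 4493, 769, 658, 323 and 724 in WT arthritis. WT replicate 1 was far above the other 9 arthritis libraries, and WT replicate 4 lay within the Sema3b-/- range (log2 fold change -1.61, SE 0.52, limma adjusted p = 0.376). Cd55, the complement inhibitor that marks lining fibroblasts, was at 124, 99.5, 114, 168 and 135 normalized counts in Sema3b-/- arthritis, against 531, 208, 254, 192 and 176 in WT arthritis, without overlap and with WT replicate 1 highest (log2 fold change -0.97, SE 0.28, limma adjusted p = 0.305). The synovial list took 0.444% to 0.649% of normalized counts in Sema3b-/- arthritis, against 1.68% in WT replicate 1 and 0.281% to 0.866% in the other WT arthritis libraries. Frzb, a secreted Wnt antagonist of joint tissue, was at 23.3, 47.4, 36.2, 45.3 and 38.2 normalized counts in Sema3b-/- arthritis, against 210.0, 65.4, 63.2, 49.3 and 76.7 in WT arthritis, without overlap (log2 fold change -1.09, SE 0.36, limma adjusted p = 0.373).

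Muscle and epidermal genes varied widely between libraries of the same genotype. None of 16 muscle genes and none of 12 epidermal genes had an unadjusted p under 0.05, with medians of -0.44 and 0.52. The muscle list took 1.57%, 0.197%, 1.43%, 1.11% and 0.775% of normalized counts in Sema3b-/- arthritis, against 2.53%, 2.97%, 0.189%, 0.915% and 1.17% in WT arthritis. The epidermal list took 0.640%, 0.0481%, 1.28%, 0.846% and 0.545% in Sema3b-/- arthritis, against 0.244%, 1.26%, 0.0445%, 0.169% and 0.541% in WT arthritis. Leaving out Sema3b-/- replicate 2 moved the muscle median to 0.07, and leaving out WT replicate 3 moved the epidermal median to -0.34. Without these 2 libraries limma called 3 genes, Lrrn4cl, Abhd14b and Sema3b, all lower. The part of tissue content in the results above was not tested.

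**Figure D5:**
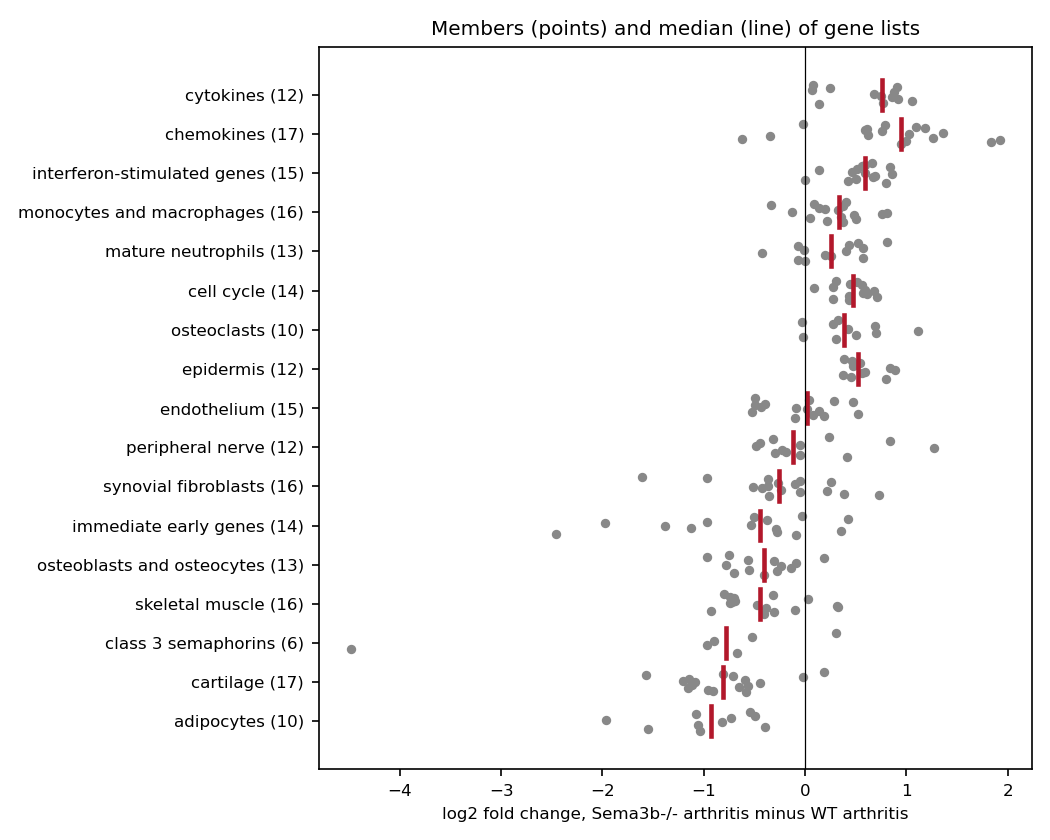
Log2 fold change of Sema3b-/- arthritis minus WT arthritis (horizontal axis) for each tested member (grey points) of 17 gene lists, with the list median (red line) and the number tested in brackets. Medians run from 0.95 for chemokines to -0.93 for adipocytes; the point at -4.48 is Sema3b.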

How the data were processed

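Total RNA of mouse forepaws was purified with RNeasy columns and DNase, tagged near the 3′ end by CEL-seq, copied in vitro and read from both ends, per the labels' protocols. BWA, DESeq2 1.32 and the build mm10 appear in the submitters' processing notes. For the counting tool, its use of strand and any removal of duplicate molecules, the sources used here give nothing.

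The authors deposited a signal for 18585 genes, namely read counts scaled by each library's size factor. Whole reads came back from it for 100% of values, within 0.02 of a read. The authors also deposited, per comparison, a log2 fold change, a test statistic (score), a p-value and an adjusted p-value. Date-like names of 26 genes were put right. The column of one library ends in Ct although its sample is labelled as arthritis, and the sample's label was followed.

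The main test was limma-trend with robust empirical Bayes (limma 3.58.1, R 4.3.3) on log2 of the value plus 1, with 4 group means over 18 libraries and 14 residual degrees of freedom. A gene entered the test if 4 or more libraries reached a value of 10, which left 13809. Calls are genes whose Benjamini-Hochberg adjusted p was under 0.05. The scripts were tested on simulated data. Alternatives used edgeR 4.0.16 and DESeq2 1.42.0 on recovered reads, other scalings, filters and constants, terms for sex and title start, and fits that left out libraries. SD is between libraries, and SE is that of the fitted log2 fold change. A count of 0 allows up to 3 reads, for counting error only.

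The text names called genes, the 10 lowest p-values in each direction among uncalled genes at or above the median level of 106, Sema3b with its family, receptors and neighbours, sex-linked genes, and the 2 lowest p-values of each of 40 gene lists. The libraries and lists were chosen with earlier results of these data known. Within groups, 20 pairs of arthritis libraries differed by 15 to 210 in chi-square per degree of freedom, so none was counted as a duplicate. Coordinates are 1-based, from GENCODE on the same assembly as mm10. Sex was read from Xist and 4 Y-linked genes.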

Additional observations from a re-analysis of the deposited data

Results flagged for a closer look

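Of 172 groups of 5 libraries examined, 18 held a library whose gap to its nearest neighbour exceeded Dixon's 95% critical value, where chance flags about 1 in 20. Of these, 7 were WT arthritis replicate 1. It was high in Sema3a (535 normalized counts, others 104 to 172), Sema3d (384, others 78.3 to 122), Cd55 (531, others 176 to 254), Clic5 (4493, others 323 to 769), Frzb (210.0, others 49.3 to 76.7) and Xist (579.6, others 2.55 to 9.60), and low in Ddx3y (5.91, others 757 to 1037). Sema3b-/- arthritis replicate 2 was high in Il4ra (847, others 449 to 552), Ptx3 (515, others 179 to 269) and Cdk1 (1120.1, others 508 to 658). Sema3b-/- replicate 4 was high in Itgax (452, others 64.8 to 139) and Plxna3 (68.0, others 30.6 to 38.9) and low in Nrp1 (885, others 1079 to 1147). The others were single values. Cdo1 was 327 in Sema3b-/- replicate 1 (others 126 to 152), Nprl2 was 73.4 in Sema3b-/- replicate 3 (others 41.0 to 46.6) and Ddx3y was 806 in Sema3b-/- replicate 5 (others 0.871 to 5.03). Rbp4 was 338 in WT arthritis replicate 3 (others 180.4 to 199), and Nprl2, a subunit of the GATOR1 complex, was 26.6 in WT arthritis replicate 5 (others 33.1 to 35.5).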

How the results depend on the processing

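The count of 3 calls was 3 with TMM scaling, other filters, constants of 0.5 and 5, edgeR and no robust option, and Lrrn4cl, Sema3b and Tmem100 were the 3 each time. DESeq2 called 92 (19 higher, 73 lower), weights per library 38 (5 higher, 33 lower), sex as a term 4, and sex and title start as terms 5. With the 10 arthritis libraries alone limma called 1, Sema3b. With Joint titles and controls only it called 0 (697 at an unadjusted p under 0.05), where Sema3b was at -4.14 (adjusted p = 0.0581). With sex as a term and the 10 libraries alone, chosen after seeing the data, it called 0 (1266 unadjusted), where Sema3b was at -4.53 (adjusted p = 0.366). The fit without the 2 libraries lowest in muscle and epidermis was also chosen after seeing the data. Leaving out 1 library at a time gave 2 to 6 calls, 5 without Sema3b-/- arthritis replicate 3, 4 or 5 or WT arthritis replicate 2, and 6 without WT arthritis replicate 4. Sema3b ranged from -5.10 with DESeq2 to -2.93 with a constant of 5. Replicate numbers did not pair the libraries, since own-number correlations were 0.121, -0.658, -0.532, -0.300 and 0.0434; the replicate block gave 9 calls, all lower. Over 77 named genes other than Sema3b and 35 settings, 2624 values stayed on their side of the threshold, 63 passed it and 8 no longer did, and none of the 77 turned its sign. The Sema3b call was lost in the 2 settings given above. Depth limits the size of the Sema3b change, since its Sema3b-/- libraries hold 0 to 4 reads. The cause of these differences was not tested.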

Other observations

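No immediate early gene passed the threshold. Over all tested genes 49.7% had a negative log2 fold change. At an unadjusted p under 0.05, 3.94% of them were higher and 5.03% lower. Of 14 immediate early genes 12 had a negative log2 fold change (median -0.44), 4 with an unadjusted p under 0.05. The median was -0.23 without Sema3b-/- replicate 2 and -0.09 without Sema3b-/- replicate 2 and WT replicate 3. The summed list took 0.0619% to 0.135% of normalized counts in Sema3b-/- arthritis (median 0.0821%) and 0.0682% to 0.192% in WT arthritis (median 0.0758%). Nr4a1, an orphan nuclear receptor induced within minutes of a stimulus, was at 47.9, 44.5, 366, 327 and 111 normalized counts in Sema3b-/- arthritis, against 253, 358, 1142, 671 and 402 in WT arthritis. Fosb, a subunit of the AP-1 factor, was at 14.3, 11.4, 280.4, 233 and 53.5 normalized counts in Sema3b-/- arthritis, against 228, 157, 1098, 473 and 183 in WT arthritis. Sema3b-/- replicates 1 and 2, whose titles lack the word Joint, were the lowest for both genes, and replicates 3 and 4 lay within the WT range. The log2 fold change was -1.97 for Nr4a1 (limma adjusted p = 0.305) and -2.46 for Fosb (adjusted p = 0.389). Per1, a repressor of the circadian clock that glucocorticoids also induce, was at 41.5, 35.1, 102.5, 82.8 and 32.0 normalized counts in Sema3b-/- arthritis, against 103.5, 109, 121, 142 and 127 in WT arthritis, without overlap (log2 fold change -1.17, SE 0.30, limma adjusted p = 0.228). In controls Per1 was 101, 188, 245 and 213 in Sema3b-/- control, against 103, 87.5, 72.2 and 61.4 in WT control, a log2 fold change of 1.15. The interaction was -2.32, with the lowest p of all genes, and did not pass (adjusted p = 0.449). Females were more frequent in Sema3b-/- than in WT arthritis and less frequent in Sema3b-/- than in WT control, and the part of sex in the interaction was not tested. With sex as a term the arthritis log2 fold change of Per1 was -1.16. Cry2, another clock repressor, had a log2 fold change of -0.64 in arthritis. Of 12 glucocorticoid-responsive genes 4 had a lower and 2 a higher level at an unadjusted p under 0.05, Errfi1 and Per1 being among the lower and Mt1 and Mt2 the higher.

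No cell cycle or matrix protease gene passed the threshold. Over all tested genes 49.7% had a negative log2 fold change in arthritis. At an unadjusted p under 0.05, 3.94% of all tested genes were higher and 5.03% lower. All 14 cell cycle genes had a positive log2 fold change (median 0.47 in arthritis and 0.59 in controls), 4 with an unadjusted p under 0.05 in arthritis. The arthritis median was 0.18 within the Joint titles. Cdk1, the kinase that drives mitosis, was at 657, 1120.1, 508, 546 and 658 normalized counts in Sema3b-/- arthritis, against 232, 419, 549.6, 504 and 426 in WT arthritis (log2 fold change 0.71, SE 0.25, limma adjusted p = 0.419). Birc5, the mitotic protein survivin, had 136 to 382 normalized counts in Sema3b-/- arthritis, against 128 to 175 in WT arthritis (log2 fold change 0.68). Of 14 matrix proteases and inhibitors 2 had a higher and 1 a lower level at an unadjusted p under 0.05. The list median was -0.08, and 0.07 without WT replicate 4. Timp1, an inhibitor of metalloproteinases induced in inflammation, was at 5232, 11315, 4689.9, 3757 and 6864 normalized counts in Sema3b-/- arthritis, against 2105, 296, 3808, 4165 and 2512 in WT arthritis, lowest in WT replicate 2 (log2 fold change 1.63, SE 0.57, limma adjusted p = 0.419). Timp4, a relative found in muscle and fat, was at 42.8, 10.4, 17.1, 41.8 and 28.5 normalized counts in Sema3b-/- arthritis, against 54.7, 159.6, 64.4, 51.9 and 147 in WT arthritis, without overlap (log2 fold change -1.73, SE 0.46, limma adjusted p = 0.249). Of 13 genes of hypoxia and glycolysis 3 had a higher level at an unadjusted p under 0.05. The list median was 0.27, and with sex as a term it was -0.05. Dkk2, a secreted Wnt antagonist, had a log2 fold change of -0.56, and Serping1, the inhibitor of the first complement component, one of -0.48 in arthritis and -0.59 in controls.

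The lists not yet described had few members below an unadjusted p of 0.05, and none had a call. Over all tested genes 3.94% had a higher and 5.03% a lower level by that measure. Fatty acid synthesis had 2 lower of 10 (median -0.09), Wnt antagonists 2 lower of 9 (median -0.27), the circadian clock 2 lower of 15 (median -0.21) and snoRNA host genes 1 lower of 9 (median 0.07). Muscle atrophy and denervation had 2 higher of 11 (median 0.12), both metallothioneins, dendritic cells 1 higher of 7 (median 0.24) and genes next to Sema3b 4 higher of 15 (median 0.16). Collagens (12 tested, median 0.10), peripheral nerve (12, median -0.12), oxidative phosphorylation (15, median -0.13) and erythroid cells (6, median -0.06) had none. With 1 library left out at a time, medians of both signs were found for fatty acid synthesis, the circadian clock, snoRNA host genes, muscle atrophy, collagens, peripheral nerve, oxidative phosphorylation and erythroid cells. The median moved to -0.02 for Wnt antagonists without Sema3b-/- replicate 5, to 0.10 for dendritic cells without WT replicate 2 and to 0.32 for genes next to Sema3b without Sema3b-/- replicate 2.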
